A study of Mus musculus with 12 samples.

Results

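The genes of folate and S-adenosylmethionine synthesis described here were 9 members of the one-carbon pathway, namely Mat2a, Mat2b, Ahcy, Mthfd1, Shmt1, Mthfd2, Mthfd1l, Shmt2 and Aldh1l2. They were followed through lists of N6-methyladenosine (m6A) peaks of lung RNA. A peak was taken when the gene to which the authors' annotation assigned it, or the gene on which it had been called, was a member. The members were chosen from measured values of these same lists, so their values are given as a description without a test. By this rule 9 of 27292 OVA peaks and 7 of 26102 PBS peaks belonged to the members. The lists together held called peaks on 14988 genes, 5 of which were members.

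The lists come from a mouse model of allergic asthma and address which lung RNAs carry m6A in asthmatic and in control animals. Female BALB/c mice of 6 to 8 weeks in the OVA group had been sensitized on days 0 and 7 with ovalbumin (OVA), an egg protein, mixed with the adjuvant alum, and then breathed 3% OVA aerosol for 30 min a day from day 14 to day 20. Control mice of the PBS group were injected with phosphate-buffered saline without OVA or alum and were exposed to it in place of the OVA aerosol, so the groups differed in adjuvant as well as in OVA. Lung tissue of 3 mice per group was taken on day 21. The authors describe collecting lungs after an airway test with nebulized methacholine that day, without saying whether the sequenced mice underwent it. Each mouse gave 1 library of fragments bound by an antibody against m6A (IP) and 1 input library of the same fragments without the pull-down. A peak is a stretch of exons in which IP reads exceeded input reads, and fold enrichment gives how many times IP exceeded input there. Each group has 1 list for its 3 mice together. The values therefore have no spread between mice, and no difference between the lists has a replicate check. Reads per peak are not given, so the depth behind each fold enrichment is unknown and no interval is stated. A peak that is not listed is not evidence that m6A was absent, because a transcript with few reads can miss the caller's threshold. In whole lung tissue, fewer cells of a type and less RNA per cell cannot be told apart.

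S-adenosylmethionine is the methyl donor for most cellular methylation, including that of adenosine in RNA, and is made from methionine and ATP. The folate cycle carries one-carbon units, taken mainly from serine, through parallel sets of enzymes in the cytosol and in mitochondria, and supplies them for nucleotide synthesis and for the remaking of methionine. The RNA of Mat2a is itself a known m6A target, since the methyltransferase METTL16 modifies hairpins in its 3' untranslated region (UTR) and thereby tunes its splicing and stability to the supply of S-adenosylmethionine.

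Of the 9 members, 5 had a peak called on the gene in both lists, namely Mat2a, Mat2b, Shmt1, Mthfd2 and Mthfd1l. No peak was listed in either group for Ahcy, Mthfd1, Shmt2 and Aldh1l2. The share of members with a peak was 55.6%, beside 54.8% of the 21900 protein-coding genes in RefSeq. Of the 14988 genes with a called peak in either list, 82.0% had 1 in both. In OVA lung 6 of the 9 member peaks lay below the median fold enrichment of all peaks, 5.59, 1 of them called on the neighbouring gene Hmmr, and the members' own median was 3.59. In PBS lung 4 of the 7 lay below the median of 5.44, with a members' median of 3.24. By the authors' annotation, a 3' UTR held 7 of the 9 peaks of OVA lung and 6 of the 7 of PBS lung, a class with 52.7% of all peaks in each list.

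**Figure D1:**
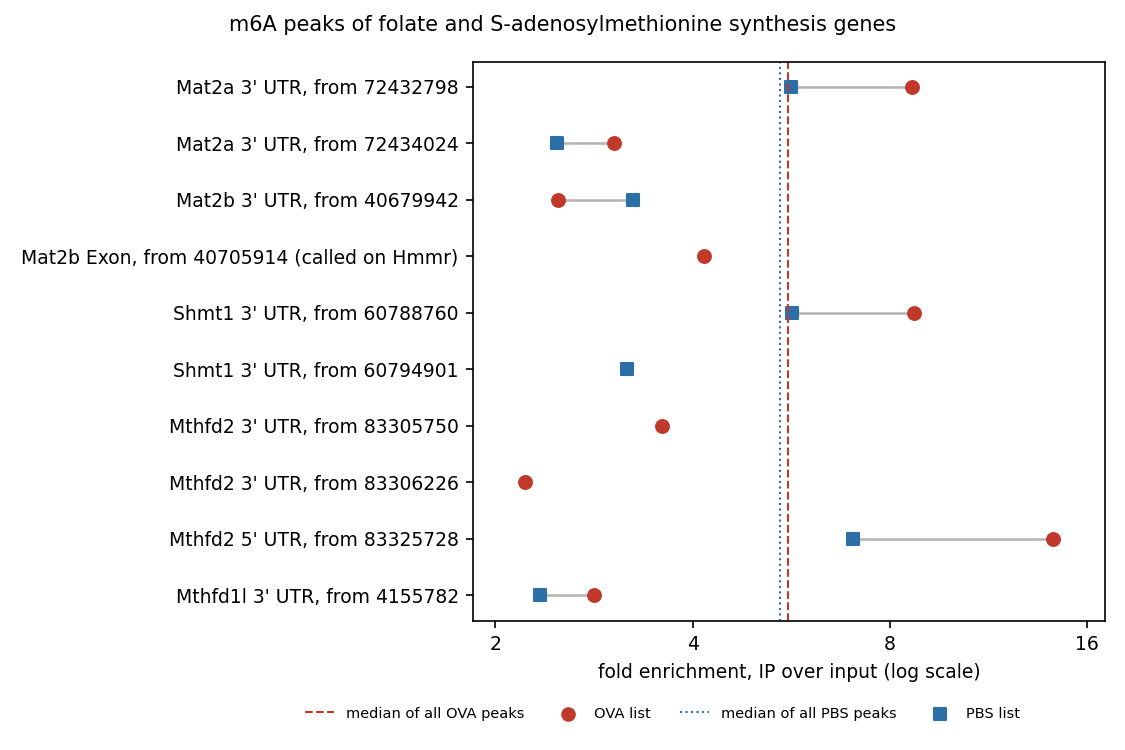
Fold enrichment of IP over input (horizontal log axis) for each member peak, 1 line per peak, with OVA values as red circles, PBS values as blue squares and a grey line joining overlapping peaks. Dashed and dotted lines mark the median of all peaks of each list, and the values run from 2.22 to 14.2.

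Mat2a encodes the catalytic subunit of the methionine adenosyltransferase found outside the liver, the enzyme that makes S-adenosylmethionine. Its RNA had 2 peaks in each list, both in the 3' UTR by the authors' annotation. The distal one lay at chromosome 6, positions 72432798 to 72433517, in OVA lung and ended 90 bp earlier, at 72433427, in PBS lung. It began 2 bp inside the edge of the RefSeq gene, which spans 72432796 to 72439556 on GRCm38. Its fold enrichment was 8.64 in OVA lung and 5.66 in PBS lung. Those values exceeded 65.0% of all OVA peaks and 51.2% of all PBS peaks. The evidence for this peak was among the strongest of each list, since its log10 p value of -1860 in OVA lung ranked 307 from the lowest of 27292 and that of -757 in PBS lung ranked 1121 of 26102. A low p value of this kind reflects the number of reads as well as the enrichment, and the fold enrichment itself was near the middle of its list.

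The other Mat2a peak covered positions 72434024 to 72434533 in OVA lung and 72434054 to 72434533 in PBS lung. The fold enrichment was 3.04 in OVA lung and 2.48 in PBS lung, below that of the distal peak in both lists. It exceeded 26.7% of OVA peaks and 19.2% of PBS peaks. The Mat2a RNA thus carried a stronger and a weaker peak in the same order in both groups.

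Mat2b encodes the regulatory subunit of the same enzyme. Its called peak lay in the 3' UTR on chromosome 11 from 40679942 to 40680152 in OVA lung and to 40680122 in PBS lung, inside a gene that RefSeq places at 40679314 to 40695203. Its fold enrichment was 2.49 in OVA lung and 3.24 in PBS lung, the reverse order of the Mat2a peaks. The log10 p values were -17.3 and -31.8. An additional OVA peak at 40705914 to 40707375 was assigned to Mat2b, but it lay upstream of the assigned transcript and had been called on Hmmr, the neighbouring gene, whose product is a hyaluronan receptor active in dividing cells. Its fold enrichment was 4.16. No peak called on Hmmr was in the PBS list, and this peak says nothing about Mat2b RNA.

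Ahcy encodes the hydrolase that clears S-adenosylhomocysteine, the product left after a methyl transfer and an inhibitor of methyltransferases. No peak of either list was called on Ahcy or assigned to it. No listed peak lay within its RefSeq span on chromosome 2 from 155059310 to 155074497, whichever gene it was called on.

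In the cytosol, Mthfd1 interconverts the one-carbon forms of tetrahydrofolate and Shmt1 moves a one-carbon unit between serine and folate. Mthfd1 had no listed peak. Shmt1 had a 3' UTR peak at the end of the gene on chromosome 11, of 2 exonic blocks between 60788760 and 60789607 in OVA lung and between 60788760 and 60789637 in PBS lung. Fold enrichment was 8.72 in OVA lung and 5.67 in PBS lung, and its log10 p value was -242 and -66.1. The first block was the same in both lists, from 60788760 to 60789316, and began 137 bp beyond the RefSeq edge of the gene at 60788897. A second Shmt1 peak was listed in PBS lung alone, with 2 blocks between 60794901 and 60797358, a fold enrichment of 3.18 and a log10 p value of -6.03. The strong peak of Shmt1 was therefore listed in both groups and only the weak one was not.

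Of the mitochondrial enzymes, Mthfd2 oxidizes methylene-tetrahydrofolate and is known for its high level in proliferating and activated immune cells. It had the highest fold enrichment of the members in either list. A peak in the 5' UTR on chromosome 6 covered 83325728 to 83325908 in OVA lung and 83325758 to 83325908 in PBS lung, 103 bp from the RefSeq start of the gene at 83326011. Its fold enrichment was 14.2 in OVA lung and 7.03 in PBS lung. The OVA value exceeded 85.4% of the 3169 peaks in 5' UTRs of that list, and the PBS value exceeded 59.6% of 2972. The log10 p values of -22.1 and -6.34 were far weaker than those of the distal Mat2a peak despite the higher enrichment.

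Mthfd2 also had 2 weak 3' UTR peaks in the OVA list that had no overlapping PBS peak. The first, at 83305750 to 83305840, was 91 bp wide and had a fold enrichment of 3.59, with a log10 FDR of -1.46. The other, at 83306226 to 83306406, had a fold enrichment of 2.22 and a log10 FDR of -6.43. Both were assigned to a transcript with a retained intron, while the 5' UTR peak was assigned to a protein-coding transcript.

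Mthfd1l makes formate from formyl-tetrahydrofolate in mitochondria. Its called peak lay near the far end of the gene on chromosome 10, and the authors' annotation assigned it to the small nucleolar RNA gene Gm25369, whose start lies past the end of the Mthfd1l peak. The OVA peak joined 2 blocks between 4155782 and 4166482 with 333 exonic bp, and the PBS peak was 1 block from 4155812 to 4155963, or 152 bp. The fold enrichment was 2.83 in OVA lung and 2.34 in PBS lung, above 23.8% of OVA peaks and 16.6% of PBS peaks. The Mthfd1l span also held a stronger peak in each list that was called on the gene Gm16074 and is not counted for Mthfd1l. Shmt2, which splits serine in mitochondria, and Aldh1l2, which oxidizes formyl-tetrahydrofolate there, had no listed peak.

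**Figure D2:**
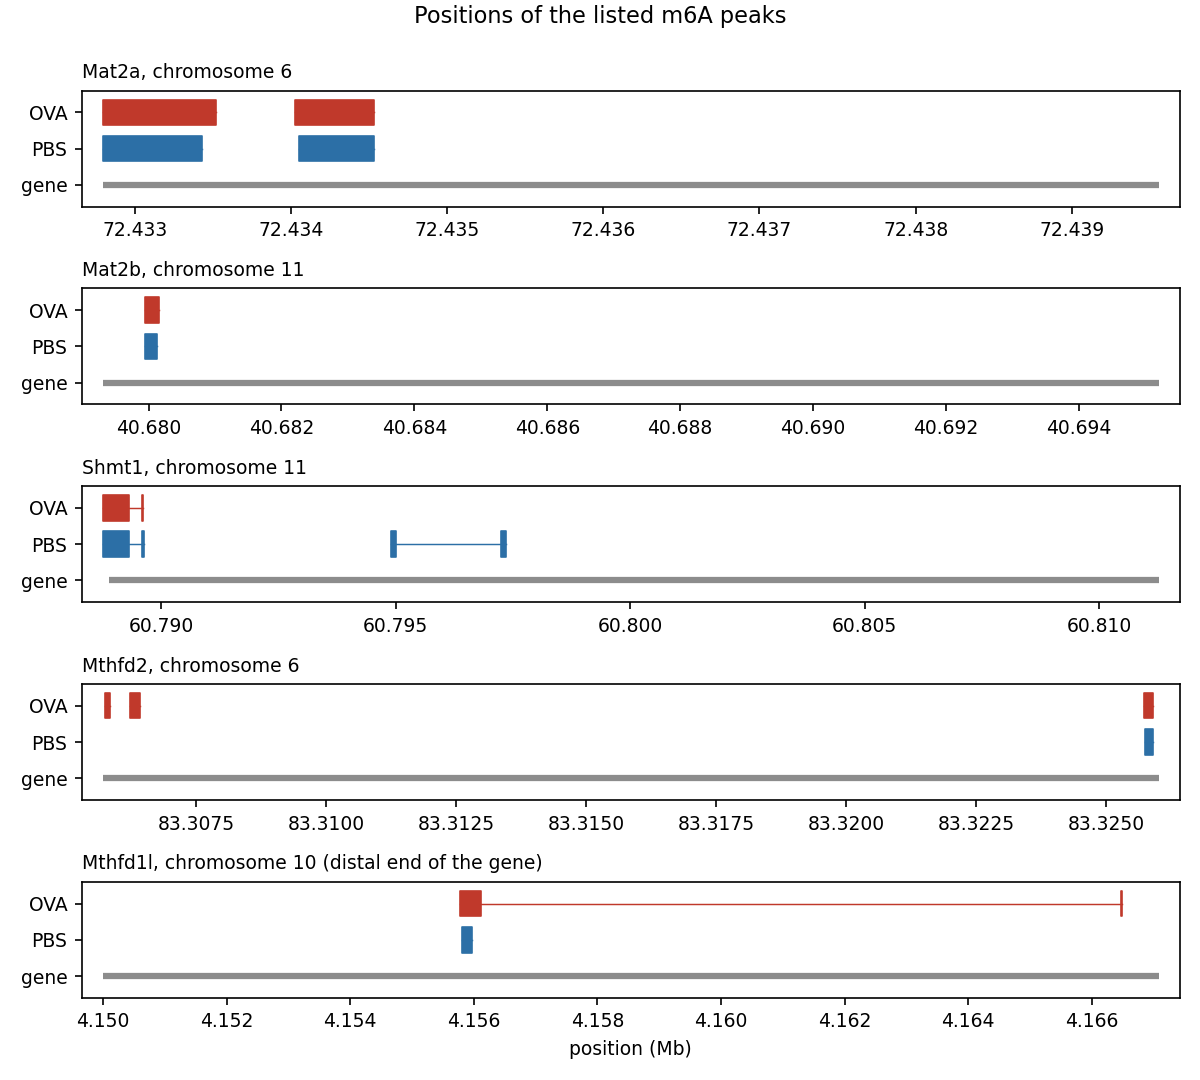
Positions of the peaks called on Mat2a, Mat2b, Shmt1, Mthfd2 and Mthfd1l (horizontal axis in Mb, GRCm38), with exonic blocks as boxes, joined by thin lines within a peak, in red for OVA and blue for PBS above the RefSeq gene in grey. The outline gives very short blocks a minimum drawn width, and for Mthfd1l only the end of the gene is drawn. The peaks of Mat2a and the 5' UTR peak of Mthfd2 overlapped between the lists, whereas the 2 peaks at the other end of Mthfd2 were in the OVA list alone.

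A counterpart in the other list was a peak with at least 1 bp of overlapping exonic blocks on the same strand. Of the 9 OVA member peaks, 3 had no PBS counterpart, namely both 3' UTR peaks of Mthfd2 and the peak called on Hmmr, beside 19.5% of all OVA peaks. Of the 7 PBS member peaks, 1 had no OVA counterpart, the weak Shmt1 peak, beside 14.6% of all PBS peaks. These counts are too small to set the members apart from the lists. Each of the 4 unmatched peaks had a fold enrichment below the median of its list, and the lowest of their log10 p values was -7.34.

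The remaining 6 OVA peaks each had a PBS counterpart called on the same gene. The ratio of their fold enrichments, OVA over PBS, was 2.02 for the 5' UTR peak of Mthfd2, 1.54 for Shmt1, 1.53 for the distal Mat2a peak, 1.23 for the other Mat2a peak, 1.21 for Mthfd1l and 0.769 for Mat2b. Over all 21961 pairs of overlapping peaks the median ratio was 1.09, with quartiles of 0.857 and 1.37, and 59.9% were above 1. Of the member pairs, 5 of 6 were above 1 and their median was 1.38. The ratio was at least 2 in OVA lung for 1 of the 6 pairs, beside 7.64% of all pairs, and at least 2 in the other direction for 0 of 6, beside 6.59%. After division by the median ratio of all pairs that count of 1 became 0, and at a 1.5-fold threshold it became 3. The Mthfd2 ratio was higher than that of 92.6% of all pairs, the Shmt1 and distal Mat2a ratios were higher than 83.3% and 82.9%, and the Mat2b ratio was higher than 18%. A ratio of 2 values from separately called lists also carries any difference in pull-down between them. The p value was lower in the OVA list for 5 of the 6 member pairs and for 57.6% of all pairs.

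**Figure D3:**
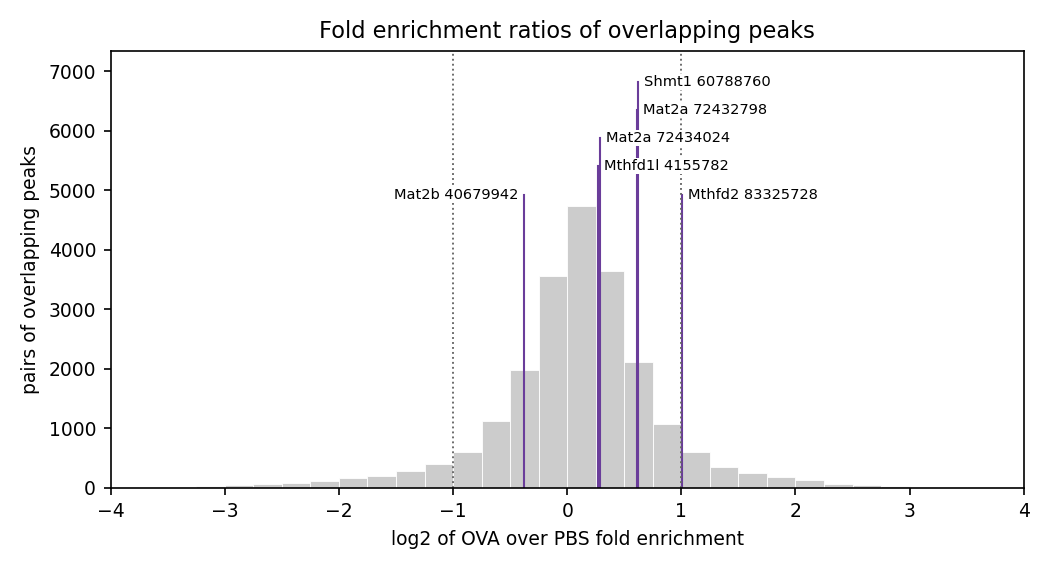
Number of pairs of overlapping peaks (vertical axis) by log2 of the OVA over PBS fold enrichment (horizontal axis), with a line for each of the 6 member pairs, named by gene and OVA start, and dotted lines at a ratio of 2 in each direction. The 11 pairs beyond the drawn range are counted in the end bars, and 5 of the 6 member lines lie on the OVA side of 0.

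Peaks of other pathway genes were taken by the called gene alone, unlike those of the members. A list of 51 other genes of the methionine and folate cycles, their transport and neighbouring reactions had 28 called peaks in OVA lung and 30 in PBS lung. A peak was called for 20 of the 51 genes in each list and for 24 in either list, or 47.1% beside the 54.8% of all protein-coding genes. Of these 24 genes, 16 had a peak in both lists, or 66.7% beside 82.0% of all genes with a called peak. The remaining 27 genes had none. Of the 21 pairs with an OVA peak called on the 51 genes, 0 had a ratio of at least 2 in either direction and the median ratio was 1.23. Of 5 pairs of peaks assigned to these genes but called on a neighbour, 2 had a ratio of at least 2, beside 7.64% of all pairs, and the lowest ratio was 0.908. The peak near Mthfs called on Gm29094 had a fold enrichment of 14.3 in OVA lung and 5.72 in PBS lung, and the peak near Ggh called on Ttpa had 12.3 and 5.68, with ratios of 2.50 and 2.17. The latter peaks overlapped by 2 bp only. Genes with peaks listed in OVA lung alone included Slc46a1, the proton-coupled folate transporter, with a fold enrichment of up to 17.5, Aldh1l1, the cytosolic relative of Aldh1l2, at 7.19, and Mthfs at up to 2.97. Of the 2 Mthfs peaks, the one at 2.97 overlapped a PBS peak of 5.72 that had been called on Gm29094. This pair, with a ratio of 0.519, is among the 21, and its PBS peak also belongs to a pair called on a neighbour. The other Mthfs peak, at 2.36 with a log10 FDR of -4.01, had no PBS counterpart. Peaks were listed in PBS lung alone for Mthfd2l, the relative of Mthfd2, at 11.8 with a log10 FDR of -2.38, for Gcsh of the glycine cleavage system at 3.45, for Fpgs, which adds glutamates to folate, at 1.54 and for the spermine synthase gene Sms at 2.47. The log10 FDR was -2.94 for Gcsh, -2.57 for Fpgs and -1.31 for Sms.

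Among the highest peaks called on these genes in OVA lung were those of Slc46a1, of Mtap of the methionine salvage pathway (14), of Amd1, which decarboxylates S-adenosylmethionine for polyamine synthesis (13.2), and of Mtrr, which keeps methionine synthase active (12.2). In PBS lung they included those of the mitochondrial folate carrier Slc25a32 (12.8), Mthfd2l, Mtap (11.5) and Amd1 (8.88). This Amd1 peak lay in the 5' UTR, as did that of Mthfd2, and its ratio was 1.49. The other Amd1 peak, in the 3' UTR, stood at 4.31 in OVA lung and 4.47 in PBS lung, a ratio of 0.964.

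Mettl16, the methyltransferase of the Mat2a hairpins, had 1 called peak in each list, in its own 3' UTR on chromosome 11, with a fold enrichment of 6.76 in OVA lung and 7.79 in PBS lung. Ythdc1, a nuclear reader of m6A linked to Mat2a splicing, had 4 called peaks in OVA lung and 5 in PBS lung. Its strongest, at chromosome 5 from 86826715 to 86829655, had a fold enrichment of 16.5 in OVA lung and 16.1 in PBS lung. Its 5' UTR peak stood at 3.59 in OVA lung and 7.90 in PBS lung, the opposite order to that of Mthfd2. Of its other paired peaks, 1 stood at 5.26 in OVA lung and 3.15 in PBS lung and 1 at 3.22 and 4.01.

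Peaks on marker genes were counted as a check of the tissue, which tells of listed peaks and not of expression. Of 10 lung epithelial genes, 9 had a called peak in both lists and Sftpc had none. For comparison, 54.8% of all protein-coding genes had a called peak in either list. Of all genes with a called peak, 82.0% had 1 in both lists. Of 6 hepatocyte genes, Alb, Apoa1, Ttr, Fgb and Cps1 had none in either list, while Apob had 13 peaks in OVA lung and 0 in PBS lung. Of 8 dividing-cell genes, 8 had a peak in OVA lung, with 20 peaks in all, and 5 had one in PBS lung, with 13. The 5 with a peak in both lists stand beside 82.0% of all genes with a called peak. The genes listed in OVA lung alone were Ccnb1, Bub1 and Cdk1. Marker genes with a peak are named after their values were seen. The part of dividing cells in the additional Mthfd2 peaks of OVA lung was not tested. Of 10 leukocyte genes, 4 had a peak in both lists, Jchain in OVA lung alone and S100a8 in PBS lung alone, with 9 peaks in OVA lung and 6 in PBS lung, and those with none included Siglecf, Epx and Cd68. The 82.0% is a share of all genes with a called peak. Beside it, the 4 leukocyte genes with a peak in both lists are counted without the 4 that had none.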

How the data were processed

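m6A pull-down and input libraries were made from the lungs of 3 OVA and 3 PBS mice. The authors trimmed reads (FASTP), aligned them to an Ensembl mouse genome (HISAT2), and deposited 1 list per group of peaks found by exomePeak and annotated by ChIPseeker. How the replicates were combined is not given in the sources used here. Fold enrichment, a ratio of IP to input, and the score, a log10 p value or log10 FDR, were deposited as the authors' caller gave them. Deposited positions, widths, block numbers and distances were used unchanged. Of the OVA peaks called on RefSeq protein-coding genes, 95.2% overlapped that gene on GRCm38, so this build was used. Strand was that of the called gene where the lists gave it, and for 2856 OVA and 2694 PBS peaks strand was ignored. Peaks were paired by the largest block overlap. Genes named were all members, pathway genes with peaks in 1 list or among the 5 strongest, Mettl16 and Ythdc1, except for a few genes that are not reported here. Marker genes with a peak, Psat1, Ggh and neighbours on which peaks were called or to which they were assigned are named after their values were seen. The members and lists were chosen with earlier results of these data known. Alternatives were stricter FDR or fold thresholds, other gene assignments, other overlap rules and other ratio thresholds. Overlap code was tested on simulated data. Python 3.11.15, numpy 2.4.6, pandas 2.3.3 and matplotlib 3.10.9 were used.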

Additional observations from a re-analysis of the deposited data

How the results depend on the processing

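Of 45 recomputed values, 41 stayed within 1.5 times the main count. Requiring an overlap of 50% of both peaks raised the PBS member peaks without an OVA counterpart from 1 to 2, since the short Mthfd1l peak covers less of its longer OVA counterpart. With peaks assigned to protein-coding transcripts only, the member genes with a peak in both lists fell from 5 to 2, since the Mat2b and Shmt1 peaks are assigned to transcripts with a retained intron and those of Mthfd1l to a small nucleolar RNA. The 1 pair past a 2-fold ratio, that of Mthfd2, became 0 after division by the median ratio of all pairs and 3 at a 1.5-fold threshold, so that call rests on the threshold. Ignoring strand, an alternative chosen after seeing the data, changed none of the 3 counts it was applied to. No paired analysis was possible because the lists pool the replicates of a group, and for the same reason no mouse could be left out in turn. The motif search was not run, since no genome sequence was used here. Reads per peak are unknown, so how far depth limits the listing of weak peaks, such as those of Mthfd2 in the 3' UTR, was not tested.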

Other observations

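Among the hepatocyte genes, Apob differed from the other 5 and is named after its values were seen. The OVA list held 13 peaks called on Apob and the PBS list none. All 13 lacked a PBS counterpart, as did 19.5% of all OVA peaks. The fold enrichments of the Apob peaks ran from 2.77 to 18.5 with a median of 8.73, and their log10 FDR from -23.2 to -3.28. No peak was listed in either group for Alb, Apoa1, Ttr, Fgb and Cps1. Whether 1 mouse or all 3 gave these peaks cannot be read from a list that pools the animals.

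Several peaks near pathway genes were called on a neighbour. A peak assigned to Psat1 of serine synthesis was called on Cep78 and had a fold enrichment of 29.3 in OVA lung and 17.8 in PBS lung, while the peak called on Psat1 itself stood at 5.63 and 6.33. Genes taken by assigned name alone would therefore give Psat1 the opposite order of the groups for its strongest peak.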
